A study of Mus musculus with 6 samples.

Results

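The colony-stimulating factors and their receptors were followed through the cells of mouse pancreatic tumours. The set holds 8 genes, chosen by symbol from the 32285 genes of the count files. They are the ligands Csf1, Il34, Csf2 and Csf3, and the receptor genes Csf1r, Csf2ra, Csf2rb and Csf3r. Their levels were not used to choose them, and none of them was among the markers that defined the cell classes. All tumours were orthotopic, that is, grown in the pancreas of C57BL/6 mice aged 6 to 8 weeks at injection, from KPC cells, cancer cells from a genetically engineered mouse model of pancreatic cancer. In the OE-Vector group the KPC cells carried an empty vector, and in the OE-MLKL group they carried a construct for overexpression of mouse MLKL, the protein that ruptures the plasma membrane in necroptosis. Tumours were harvested 4 weeks after injection, and their single cells were sequenced in droplets from the 3' ends of transcripts. Both groups therefore share the KPC cells, the immunocompetent host and the time of harvest. Each tumour was loaded separately, per the study's methods. The promoter of the construct and whether the line is 1 clone are not given in the sources used here. The labels list 3 samples in each group. Count matrices were analysed for 4 libraries, namely OE-Vector 1 and OE-MLKL 1, 2 and 3, while OE-Vector 2 and 3 were not analysed here.

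Colony-stimulating factors are secreted proteins that keep myeloid cells alive and drive their growth and maturation. CSF1 (M-CSF) and IL-34 bind the same receptor tyrosine kinase, CSF1R, on which macrophages depend. CSF2 (GM-CSF) binds a receptor made of the specific alpha chain encoded by Csf2ra and the common beta chain encoded by Csf2rb, which also serves IL-3 and IL-5. CSF3 (G-CSF) binds CSF3R and drives the production and release of neutrophils. In pancreatic cancer, these factors are known as signals between tumour cells and the myeloid cells that infiltrate the tumour.

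The 4 libraries held 150591289 to 169978362 unique molecular identifiers (UMIs, each of which tags 1 captured transcript). They gave 13489, 15739, 18808 and 15146 cells after filtering in OE-Vector 1 and OE-MLKL 1, 2 and 3, an order of libraries kept below. Pairs of libraries shared 55 to 92 cell barcodes, at most 0.608% of the smaller library. Each cell was assigned by its marker genes to cancer cells, macrophages, neutrophils, dendritic cells or T cells, and these 5 classes held 84.0% to 90.5% of the cells. All 12 macrophage, 13 neutrophil, 12 dendritic and 13 T cell markers had their highest mean level in their own class. Of the 18 cancer cell markers 13 did so, among them Krt8 and Krt18, while among the others Epcam and Cdh1 were highest in T cells and Cldn4 and Cldn7 in neutrophils. Median depths were 11145 to 24042.5 UMIs in cancer cells, 4035 to 8222 in macrophages, 713 to 1341 in neutrophils, 4491 to 8886 in dendritic cells and 2594.5 to 3590 in T cells. Dendritic cells were few, with 109, 24, 41 and 179 cells, and up to 45.8% of them in a library lay near the limit of their gate. Mlkl itself stood at 15.9 CPM (UMIs of a gene per 1000000 UMIs) in the cancer cells of the library labelled OE-Vector, within the 8.70 to 19.7 CPM of those labelled OE-MLKL, so that the 3' counts did not bear out the labels. The libraries were not equally alike. In neutrophils the correlation of log2(CPM + 1) over 8991 genes was 0.980 between OE-MLKL 1 and 2 and 0.967 between OE-Vector 1 and OE-MLKL 3, but 0.930 between OE-MLKL 1 and 3. Macrophages and T cells had the same 2 pairs of nearest libraries, while in cancer cells OE-Vector 1 was nearest to OE-MLKL 2 (0.973) and in dendritic cells OE-MLKL 1 and 2 were the least alike (0.783).

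Levels are given as CPM, with the UMIs of a gene and of all genes summed over the cells of a class and library. Barcodes with at most 100 UMIs, which hold mostly RNA free in the suspension, were summed in the same way as a background. Differences between classes were tested over the 20 sums of 5 classes in 4 libraries with the quasi-likelihood test of edgeR, with the library as a block. Each of the 8 genes had a leading class by mean level. All 8 were higher there than in the class next to it in the order of levels, with an adjusted p under 0.05. The direction of these tests was set by the choice of the leading class. Over all 13530 genes tested, between 17.2% and 37.1% were called in the same direction in the same contrasts, namely 37.1% for neutrophils over cancer cells, 33.3% for cancer over T cells, 17.2% for T over dendritic cells, 33.8% for neutrophils over macrophages, 36% for macrophages over neutrophils and 29.5% for neutrophils over dendritic cells. For steps further down the orders that are given below, the shares were 29.7% for T cells over macrophages, 30.8% for macrophages over T cells, 19.5% for macrophages over dendritic cells, 17% for dendritic over T cells and 32.5% for T over cancer cells.

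**Figure D1:**
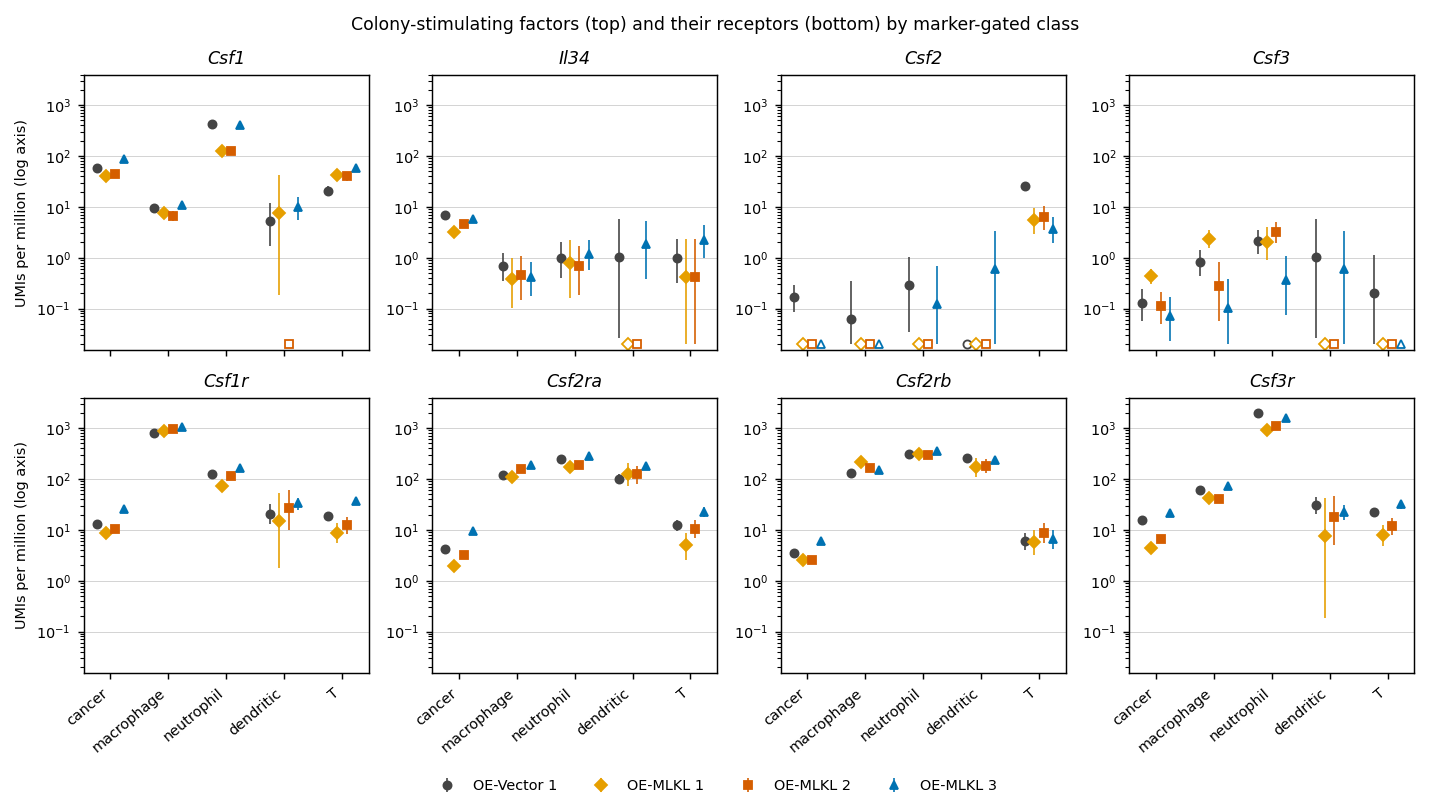
Level of each ligand (top row) and receptor gene (bottom row) in CPM on a log axis, by cell class, with 1 symbol for each of the 4 libraries and bars for the exact 95% Poisson interval, which covers counting error only. Open symbols at the foot of the axis mark sums with 0 UMIs. Csf1 and Csf3r were highest in neutrophils, Il34 in cancer cells, Csf2 in T cells and Csf1r in macrophages, while Csf2ra and Csf2rb were high in neutrophils, macrophages and dendritic cells alike.

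Csf1, the main ligand of macrophages, was highest per UMI in neutrophils. Its level there was 422, 124, 128 and 411 CPM (mean 271 ± 168 SD, n = 4). OE-Vector 1 and OE-MLKL 3 were thus high and OE-MLKL 1 and 2 low. Cancer cells held 57.4, 40.5, 44.8 and 88.5 CPM (57.8 ± 21.7 SD, n = 4), and T cells 20.9, 43.2, 39.7 and 56.9 CPM. Macrophages had 9.47, 7.65, 6.67 and 10.7 CPM, and dendritic cells between 0 and 9.82 CPM. The neutrophil level exceeded that of cancer cells by 2.57 ± 0.31 (SE) on the log2 scale (edgeR, adjusted p = 2.63e-07). Cancer and T cells, the next in the order, differed by 0.43 ± 0.31, which did not pass the test (edgeR, adjusted p = 0.237). T cells were above macrophages by 2.04 ± 0.34 (edgeR, adjusted p = 3.33e-05). Free RNA held 86.5, 44.5, 45.9 and 77.5 CPM of Csf1, below the neutrophils of every library and near the level of the cancer cells. The T cells of every library lay below it.

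Counted as transcripts rather than per UMI, the order of the first 2 classes turned. Cancer cells are deeper, and they held 153, 53.9, 56.6 and 177 Csf1 UMIs per 100 cells, against 51.6, 9.68, 10.0 and 58.9 in neutrophils. Of all 8010, 4370, 4840 and 10792 Csf1 UMIs in cells, cancer cells therefore accounted for 51.0%, 77.6%, 75.8% and 57.3%. Neutrophils accounted for 36.6%, 10.9%, 15.7% and 31.5%. Their share was larger in the libraries in which their Csf1 level was high. With every cell thinned at random to 500 UMIs, 16.7%, 5.20%, 5.62% and 16.3% of neutrophils had a Csf1 UMI, and 29.5%, 7.98%, 8.30% and 32.2% did at full depth. Macrophages, thinned likewise, gave 0.699%, 0.452%, 0.228% and 0.541%, and no thinned dendritic cell had a Csf1 UMI. Neutrophils with a Csf1 UMI held no more cancer cell markers than the others, at 3.93, 3.54, 4.01 and 4.74 marker UMIs per 10000 against 4.28, 3.85, 4.18 and 4.82.

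**Figure D2:**
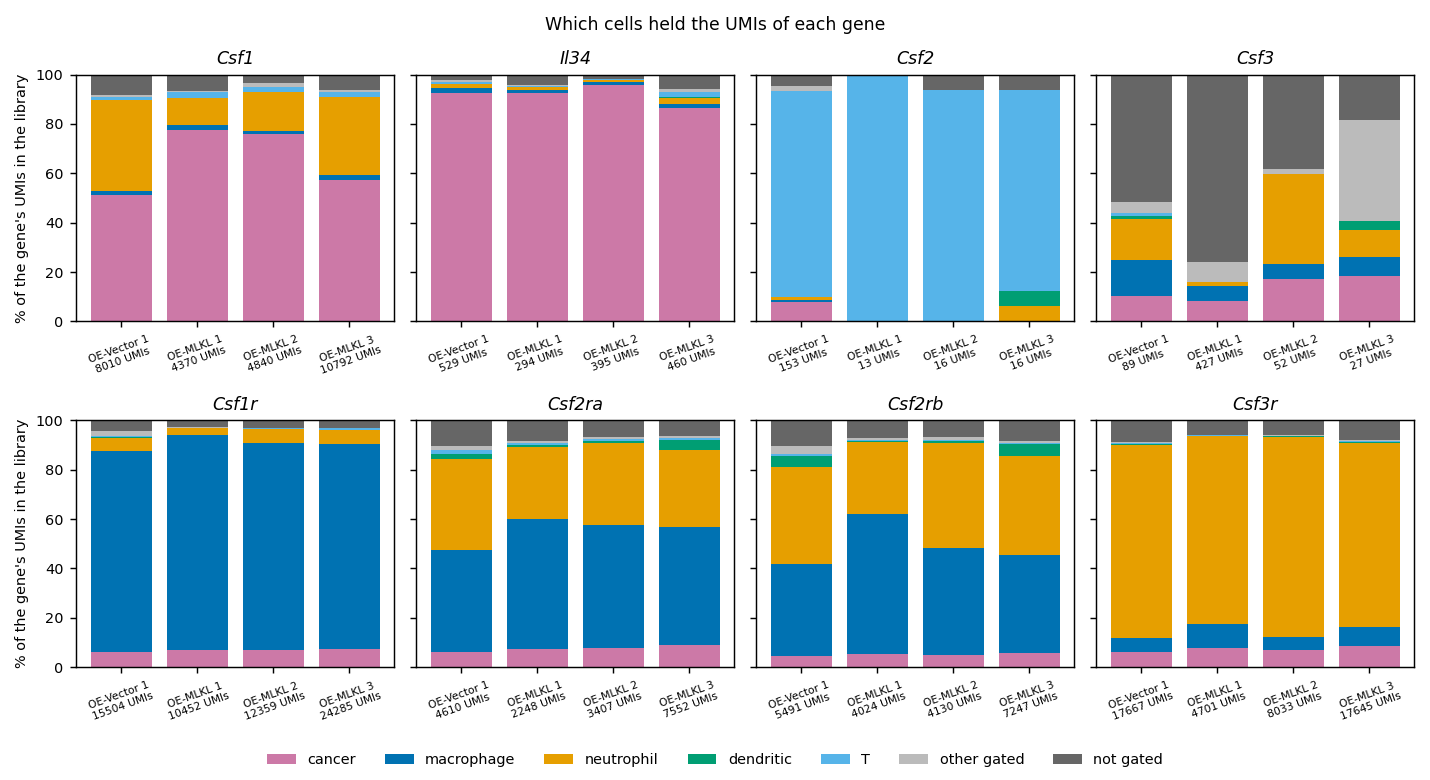
Share of each gene's UMIs in a library (vertical axis, %) found in cells of each class, in cells of other marker-gated classes and in cells with no or several classes. Numbers under the bars give the UMIs of the gene in that library. Il34 lay in cancer cells, Csf2 in T cells, Csf1r in macrophages and Csf3r in neutrophils, each with at least 74.4% of its UMIs in every library, while Csf1 was split between cancer cells and neutrophils and Csf3 had no fixed source.

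Il34, the other ligand of CSF1R, was a low transcript of cancer cells. Its level in them was 6.88, 3.24, 4.62 and 5.70 CPM (5.11 ± 1.55 SD, n = 4). The other 4 classes had at most 2.28 CPM. Cancer cells were above T cells by 2.25 ± 0.33 (edgeR, adjusted p = 6.15e-06), and among those 4 no neighbours in the order of levels passed the test. Cancer cells held 92.6%, 92.5%, 95.7% and 86.5% of the 529, 294, 395 and 460 UMIs. At full depth 15.3%, 4.12%, 5.43% and 9.95% of cancer cells had an Il34 UMI, against 0.0529% to 0.173% of the shallower neutrophils. After thinning to 500 UMIs these shares fell to between 0.0953% and 0.316%, against 0% to 0.0692% in neutrophils. Free RNA held 2.79 to 5.23 CPM of Il34.

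Csf2, a cytokine of activated lymphocytes that acts on granulocytes, macrophages and dendritic cells, came from T cells. T cells had 25.5, 5.45, 6.27 and 3.70 CPM, from 128, 13, 15 and 13 UMIs. The T cells of OE-Vector 1 thus lay above those of all OE-MLKL libraries. They accounted for 83.7%, 100%, 93.8% and 81.2% of the Csf2 UMIs of their libraries. Cancer cells of OE-Vector 1 held 12 UMIs (0.169 CPM, 95% Poisson interval 0.0871 to 0.294). The cancer cells of OE-MLKL 1, 2 and 3 held 0, which allows up to 0.0358, 0.0367 and 0.0430 CPM. Free RNA held 1.57 CPM of Csf2 in OE-Vector 1, above its cancer cells, and 0.120 to 0.481 CPM in OE-MLKL. T cells exceeded dendritic cells, the next class, by 4.98 ± 1.03 (edgeR, adjusted p = 0.00074). Without OE-Vector 1 the difference was 2.98 ± 1.19 and did not pass (edgeR, adjusted p = 0.0881), so that the call rested on that library.

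The Csf2 of OE-Vector 1 lay in 31 of 1005 T cells, of which the highest held 25 UMIs (19.5%). Values of other cytokine and T cell genes in these cells were chosen after they were seen and carry no test. The 31 cells were deeper than the other 974, with medians of 7914 and 3540.5 UMIs. Il13, which encodes a type 2 cytokine, stood at 483 CPM in them (95% Poisson interval 409 to 566) and at 10.8 CPM in the others (8.07 to 14.3). Il5, the eosinophil factor whose receptor uses the common beta chain, was at 63.6 and 4.68 CPM, and Gata3, the transcription factor of type 2 lymphocytes, at 254 and 91.6 CPM. Of the 31 cells, 10 had an Il13 UMI and 4 had an Il5 UMI. Ifng was at 741 and 206 CPM and Cd8a at 223 and 459 CPM. Foxp3, the factor of regulatory T cells, was at 0 UMIs in the cells with Csf2 (at most 11.7 CPM by its interval) and at 36.1 CPM in the rest. Only 11, 12 and 7 T cells had a Csf2 UMI in the OE-MLKL libraries, of 566, 656 and 847. The pattern of OE-Vector 1 was not found in all of them. Gata3 was lower in the cells with Csf2 in OE-MLKL 1 (36.5 against 56.9 CPM) and higher in OE-MLKL 2 and 3. It rested there on 3, 8 and 3 UMIs. Il13 was higher in the cells with Csf2 in OE-MLKL 1 and 2, on 4 and 1 UMIs. In OE-MLKL 3 it had 0 UMIs in them, against 2.30 CPM in the others. Tnfrsf9, of the TNF receptor family, was higher in the cells with Csf2 in every library. It stood at 353, 754, 319 and 489 CPM in them, against 248, 338, 222 and 203 CPM in the others. Il13 gave 203 UMIs in the T cells of OE-Vector 1 and 4, 6 and 8 in those of the OE-MLKL libraries.

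Csf3, the neutrophil growth factor, was scarce and had no fixed source. The libraries held 89, 427, 52 and 27 UMIs in all. OE-MLKL 1 stood apart, with more than the other libraries together. In neutrophils the level was 2.16, 2.07, 3.20 and 0.362 CPM, and in macrophages 0.815, 2.36, 0.278 and 0.104 CPM. Neutrophils were above macrophages by 1.60 ± 0.48 (edgeR, adjusted p = 0.00628), but without OE-MLKL 2 the difference was 0.91 ± 0.53 (edgeR, adjusted p = 0.151) and without OE-Vector 1 it was 1.56 ± 0.66 (edgeR, adjusted p = 0.0515). Free RNA held 1.96, 2.88, 1.20 and 0.372 CPM, near or above the neutrophils except in OE-MLKL 2. Most Csf3 of OE-MLKL 1 lay outside the 5 classes. Unsupervised clusters placed 365 of its 427 UMIs (85.5%) in cluster 16, whose leading genes were the collagen gene Col1a2, Meg3, Hspb1, Serpina3n and Eln. There 54 of 185 cells had a Csf3 UMI, and the level was 195 CPM. In the other libraries, OE-Vector 1, OE-MLKL 2 and OE-MLKL 3, this cluster held 2, 7 and 15, at 1.60, 6.99 and 7.39 CPM. It had 105, 154 and 149 cells there. In OE-Vector 1, by contrast, 38 UMIs lay in cluster 18, led by Mmp12, Mmp13 and Nos2, and 30 in cluster 17, led by Ccl3 and Il1f9. Fibroblasts gated by their own markers, 42 cells in OE-MLKL 1, held 29 Csf3 UMIs (83.7 CPM). The corresponding level of Csf1 in gated fibroblasts was 171, 63.5, 210 and 141 CPM, from 22 to 89 UMIs.

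Csf1r, the receptor of both CSF1 and IL-34, was a macrophage gene. Macrophages had 791, 862, 961 and 1048 CPM (915 ± 112 SD, n = 4) and held 81.4%, 87.3%, 83.9% and 82.9% of its UMIs. Among the classes compared, neutrophils followed with 124, 74.1, 116 and 167 CPM. Macrophages exceeded them by 2.86 ± 0.20 (edgeR, adjusted p = 3.50e-10). Neutrophils in turn exceeded dendritic cells by 2.60 ± 0.27 (edgeR, adjusted p = 1.35e-07). Dendritic, T and cancer cells, between 8.48 and 37.6 CPM, were not separated from their neighbours in the order. Outside the classes compared, gated monocytes had 589 CPM of Csf1r in OE-Vector 1 and 173 to 416 CPM in OE-MLKL. These levels lay above the neutrophils of every library, but rested on only 7 to 245 UMIs in a library. Monocytes were not part of the tests between classes. A Csf1r UMI was found in 92.7%, 91.7%, 95.5% and 94.3% of macrophages at full depth and in 32.3%, 34.4%, 36.7% and 37.8% after thinning to 500 UMIs. The thinned shares were 5.82%, 3.57%, 6.08% and 8.46% in neutrophils and 0.461% to 1.78% in cancer cells.

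The lower Csf1r levels were set against macrophage RNA. Free RNA held 194, 124, 144 and 215 CPM of Csf1r, above the neutrophils of every library. Per 100 UMIs of the 12 macrophage markers, Csf1r had 2.34, 2.10, 2.38 and 2.96 UMIs in macrophages. Free RNA gave 2.33, 1.83, 2.26 and 2.11, cancer cells 2.71, 2.24, 2.49 and 2.98, and T cells 2.68, 1.98, 2.24 and 2.93. The ratios of cancer and T cells thus lay near those of macrophages in every library, and that of free RNA did except in OE-MLKL 3. Dendritic cells had 2.76, 3.92, 5.08 and 3.88, on few UMIs. Neutrophils had 8.88, 3.53, 6.26 and 6.67, higher than the macrophages of the same library in 4 of 4 libraries. Neutrophils with a Csf1r UMI held 14.6, 17.6, 19.4 and 24.8 macrophage marker UMIs per 10000, against 13.9, 21.2, 18.4 and 25.1 in neutrophils without.

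Csf2ra, the alpha chain of the GM-CSF receptor, was spread over the myeloid classes. Neutrophils had 245, 172, 191 and 286 CPM (223 ± 51.9 SD, n = 4), macrophages 119, 112, 158 and 188 CPM (144 ± 35.7) and dendritic cells 101, 127, 123 and 182 CPM (133 ± 34.5). T cells were at 5.03 to 22.5 CPM and cancer cells at 1.98 to 9.54 CPM. Neutrophils were above macrophages by 0.78 ± 0.20 (edgeR, adjusted p = 0.0021), a call that was lost without the library block (0.81 ± 0.35, edgeR, adjusted p = 0.058). Macrophages and dendritic cells differed by 0.30 ± 0.24 and did not pass (edgeR, adjusted p = 0.358), and dendritic cells were above T cells by 3.49 ± 0.27 (edgeR, adjusted p = 4.87e-09). Per 100 cells the order turned, and neutrophils had the fewest Csf2ra UMIs of the 3 myeloid classes, with 13.4 to 40.9 against 48.5 to 130.4 in macrophages and 65.9 to 166 in dendritic cells. As a share of the library's UMIs macrophages led, with 41.1%, 52.5%, 49.9% and 47.8%, against 37.0%, 29.4%, 33.3% and 31.3% in neutrophils.

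Csf2rb, the common beta chain of the GM-CSF, IL-3 and IL-5 receptors, varied least between libraries, relative to its mean in the leading class, among the 8 genes. Neutrophils held 311, 303, 295 and 348 CPM (314 ± 23.4 SD, n = 4). Dendritic cells had 256, 171, 182 and 231 CPM (210.2 ± 40.0) and macrophages 128, 216, 165 and 150 CPM (165 ± 37.5). The step from neutrophils to dendritic cells was 0.76 ± 0.23 (edgeR, adjusted p = 0.00795). Dendritic cells and macrophages differed by 0.30 ± 0.23 and did not pass (edgeR, adjusted p = 0.34). Per 100 cells this order turned as well, with 225, 95.8, 97.6 and 211 Csf2rb UMIs in dendritic cells, 110.0, 94.1, 81.5 and 104 in macrophages and 38.0, 23.7, 23.2 and 49.9 in the shallower neutrophils. Macrophages were above T cells by 4.84 ± 0.28 (edgeR, adjusted p = 1.37e-11), and T and cancer cells had at most 8.77 and 6.13 CPM. After thinning to 500 UMIs, 18.3%, 12.5%, 12.2% and 12.3% of dendritic cells, 13.9%, 13.0%, 13.0% and 14.7% of neutrophils and 6.34%, 10.3%, 7.04% and 6.89% of macrophages had a Csf2rb UMI, against at most 0.524% of cancer cells and 0.398% of T cells. Outside the 5 classes, Csf2rb was at 244, 696, 344 and 333 CPM in gated mast cells and basophils, from only 34, 6, 1 and 16 UMIs. It was at 42.1, 129, 135 and 57.5 CPM in gated endothelial cells, from 17, 5, 19 and 11 UMIs. Gated monocytes had 127 to 294 CPM, from 7 to 122 UMIs in a library. Free RNA held 58.5 CPM of Csf2rb in OE-Vector 1, above its endothelial cells, and 39.9 to 80.2 CPM in OE-MLKL. Csf2rb2, the neighbouring gene on chromosome 15, encodes the mouse beta chain specific to IL-3. Among the 5 classes it was highest in macrophages (57.0 ± 7.41 CPM, SD, n = 4), while gated mast cells and basophils had a mean of 209 CPM, monocytes 67.9 and endothelial cells 67.8, each from at most 48 UMIs in a library. The transcripts of the 2 genes share 394 of the 4811 words of 90 bases in Csf2rb (8.19%), but 0 of its last 500 words, where 3' reads fall.

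Csf3r, the G-CSF receptor, was the receptor gene most tied to neutrophils. They held 1990.4, 928, 1101 and 1584 CPM (1401 ± 481 SD, n = 4), and OE-Vector 1 was the highest. Macrophages had 60.8, 43.0, 39.6 and 72.7 CPM. The difference was 4.82 ± 0.22 on the log2 scale (edgeR, adjusted p = 1.85e-12). Macrophages exceeded dendritic cells by 1.64 ± 0.29 (edgeR, adjusted p = 0.000171). Free RNA held 244 CPM of Csf3r in OE-Vector 1 and 74.4 to 271 CPM in OE-MLKL, above the macrophages of every library. Neutrophils accounted for 78.3%, 76.1%, 81.3% and 74.4% of the UMIs. At full depth 84.4%, 48.1%, 53.9% and 83.2% of neutrophils had a Csf3r UMI, and 59.5%, 35.9%, 40.6% and 53.3% after thinning to 500 UMIs, against 2.14% to 3.87% of macrophages and 0.222% to 1.43% of cancer cells. In macrophages Csf3r had 8.89, 8.12, 6.58 and 8.59 UMIs per 100 UMIs of the 13 neutrophil markers, against 2.54, 1.09, 1.21 and 1.95 in neutrophils and 3.75, 1.69, 1.53 and 2.65 in free RNA. Cancer cells (6.06, 2.74, 2.27 and 3.68), T cells (5.33, 2.53, 2.07 and 3.47) and dendritic cells (7.92, 2.00, 3.85 and 3.64) were above neutrophils as well. The values of dendritic cells rested on 29, 1, 4 and 36 Csf3r UMIs. A ratio above that of neutrophils was thus not particular to macrophages, but theirs was the highest of the classes in every library. Macrophages with a Csf3r UMI held 7.68, 5.90, 6.36 and 8.14 neutrophil marker UMIs per 10000, against 6.22, 5.15, 5.94 and 8.71 in those without.

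Receptor transcripts of the same cell were compared after thinning to 500 UMIs. Csf3r and Csf2rb were seen together in 8.52%, 4.44%, 5.37% and 7.94% of neutrophils. The product of their separate shares was 8.28%, 4.67%, 5.28% and 7.84%. Csf1 and Csf3r were seen together in 8.59%, 2.13%, 2.22% and 8.18% of neutrophils, with products of 9.95%, 1.86%, 2.28% and 8.66%. For this ligand and receptor the joint share was below the product in 3 of 4 libraries. In macrophages, Csf1r and Csf2rb came together in 2.15%, 3.94%, 2.38% and 3.03% of cells, with products of 2.05%, 3.56%, 2.58% and 2.60%.

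Spi1, which encodes the myeloid transcription factor PU.1, was the gene whose levels were most like those of both GM-CSF receptor chains. Its sites were therefore looked up in the promoters, as a description only, since binding was not measured. Over the 20 sums, its Pearson correlation on the log2(CPM + 1) scale was 0.987 with Csf2ra and 0.990 with Csf2rb. The sums share libraries and differ mainly by cell class, and Spi1 was not among the 3 genes most like Csf3r. PU.1 is known to bind sites around the letters GAGGAA. RefSeq promoters, on build GRCm38.p6, were used for 4 of the 8 genes, namely Csf1, Csf2, Csf2ra and Csf3r. The promoter of Csf1r was left out of the search, and Il34, Csf3 and Csf2rb had no entry that matched. The 4 were searched for GAGGAA or its reverse TTCCTC over the 250 bases before the start. Both receptor genes held it, and Csf1 and Csf2 did not. The stretches of 30 bases around the matches are printed with the motif in capitals, 5' to 3' on the strand of the gene.
Csf2ra, chr19:61228419-61228448, minus strand, 30 to 1 bases before the start: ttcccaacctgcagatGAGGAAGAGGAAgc
Csf3r, chr4:126024561-126024590, plus strand, 98 to 69 bases before the start: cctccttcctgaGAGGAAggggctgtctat
The starts are those of RefSeq. In the GENCODE gene models of GRCm38 Csf3r starts at 126024550 and Csf2ra at 61228429, so that the first stretch lies partly and the second wholly inside those models. Csf2ra held 2 copies next to each other and Csf3r 1. The same letters occurred in 7639 of 32851 promoters (23.3%), so a match describes the sequence and does not mark a bound site. Further motifs searched on both strands were TGANTCA of AP-1, present in 6.75% of promoters and in none of the 4, and TTGCNNAA of C/EBP, present in 9.56% and in Csf2 alone of the 4.

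The other genes most like each member describe the company it kept over the same 20 sums, which share libraries and depth. Csf1r ran closest to Lyz2 (0.982), Daglb (0.972) and Apoe (0.971), the last of which is a gating marker. Csf3r ran closest to Hcar2 (0.982), Il1b (0.978) and Cers6 (0.977). For Csf2ra, Pirb (0.980) and Trpm2 (0.978) followed Spi1, and for Csf2rb, Alox5ap (0.988) and Scimp (0.978) did. Il34 was most like Slit2 (0.948), Ddr1 (0.930) and Il11 (0.929), the last again a gating marker. Csf1 had the lowest values, with St3gal6 (0.921), Dop1b (0.915) and Kmt2e (0.908). Csf2 and Csf3 fell under 50 UMIs in at least 1 library and were not compared.

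The comparison of the groups asked whether MLKL overexpression in the cancer cells went with a change of these signals in each class. It set 3 OE-MLKL libraries against a single OE-Vector library. Its 2 residual degrees of freedom come from the OE-MLKL libraries, which takes the spread of the OE-Vector group to equal theirs, and an exact permutation test could not go below 0.25. A difference between the groups and a difference between tumours cannot be told apart. Of the 40 pairs of gene and class, 29 passed the filter on low counts. None of the 29 was called by edgeR, and 2 of them, Csf2 and Csf1 in T cells, had an unadjusted p under 0.05. DESeq2 called 0 of the 29 as well, with 3 at an unadjusted p under 0.05 and 2 that it gave no adjusted p. Over all genes, edgeR called 0.00594% in cancer cells, 0.0222% in macrophages, 0% in neutrophils (995 of 12666 genes at an unadjusted p under 0.05, and 82 called by DESeq2), 0.332% in dendritic cells and 0.00872% in T cells.

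**Figure D3:**
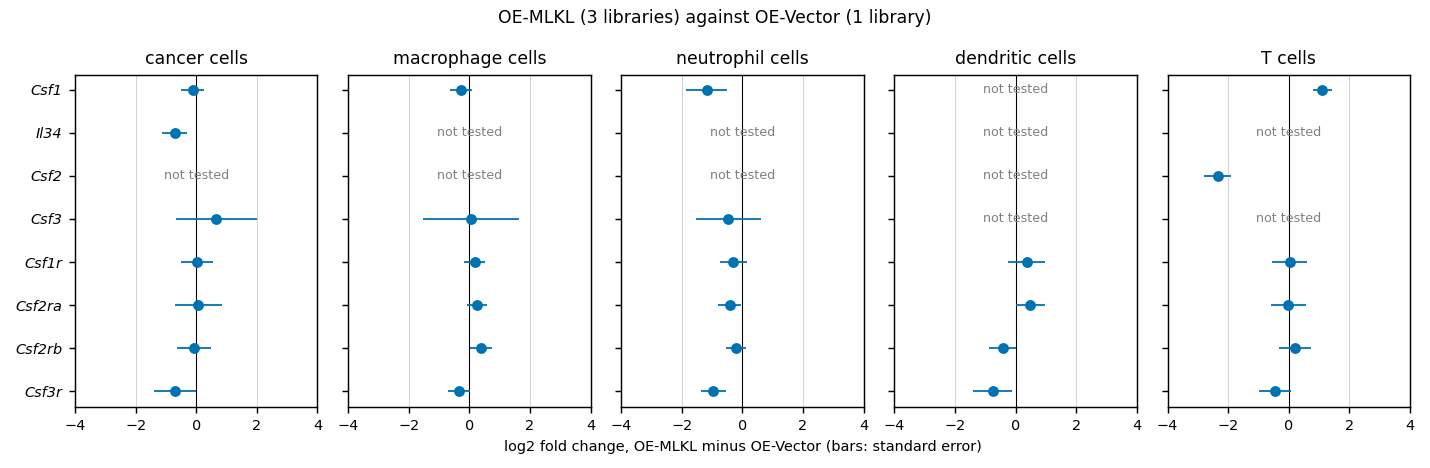
Log2 fold change of each gene between OE-MLKL (3 libraries) and OE-Vector (1 library) in the 5 classes, as points with bars for the standard error. Genes below the filter on low counts are marked as not tested. The 6 values of neutrophils lay below 0, and the values farthest from 0 were those of Csf2 (-2.35) and Csf1 (1.12) in T cells and Csf1 (-1.19) in neutrophils.

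In neutrophils all 6 genes tested had a lower fitted level in OE-MLKL. Their median on the log2 scale was -0.44, against 0.04 for all genes tested. Csf1 gave -1.19 ± 0.66 (edgeR, adjusted p = 0.698) and Csf3r -0.96 ± 0.41 (edgeR, adjusted p = 0.627). These were also the 2 of 6 genes for which OE-Vector 1 lay above all OE-MLKL libraries, as did 16.3% of all genes (58.1% lay outside the OE-MLKL range on either side). For Csf1 the margin was small, since OE-MLKL 3 at 411 CPM nearly met the 422 CPM of OE-Vector 1. Without OE-MLKL 3, Csf1 fell by 1.94 ± 0.24 (edgeR, adjusted p = 5.69e-06) and Csf3r by 1.17 ± 0.31 (edgeR, adjusted p = 0.0129), in a fit that called 17.2% of all genes (2072 of 12063). Without OE-MLKL 1 or 2 neither passed, with Csf1 at -0.92 in both fits (edgeR, adjusted p = 0.928 and 1.0) and Csf3r at -0.83 and -0.91 (edgeR, adjusted p = 1.0 in both). Csf1r (-0.31 ± 0.44), Csf2ra (-0.42 ± 0.38), Csf2rb (-0.21 ± 0.33) and Csf3 (-0.46 ± 1.09) were at most about as large as their errors. With scaling by library size alone the median of all genes moved from 0.04 to 0.27, and Csf2rb then stood at 0.02. Median depth moved with the Csf1 level, at 1158 and 1341 UMIs per neutrophil in OE-Vector 1 and OE-MLKL 3 and 713 and 739 in OE-MLKL 1 and 2, and its part in the result was not tested.

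The neutrophils of the libraries also fell into different clusters. In OE-MLKL 1 and 2 most lay in clusters 0, led by Ngp, and 2, led by Bcl2l15. In OE-Vector 1 they lay mainly in clusters 10, led by Mirt2 and G0s2, and 12, led by Siglecf and Ccl3, and in OE-MLKL 3 mainly in cluster 6, with Rdh12 and Hdc among its leading genes. Csf1 stood highest in cluster 17 of OE-Vector 1 (776 CPM), led by Ccl3 and Il1f9, in which Csf3r was 466 CPM. Cluster 12 had 558, 227, 307 and 681 CPM of Csf1 in the 4 libraries, and 1473, 372, 461 and 929 CPM of Csf3r. Within the same cluster OE-MLKL 1 and 2 were therefore again the low libraries for both genes, on 66 and 238 cells and 11 and 58 Csf1 UMIs. Cluster 0 had 108 and 102 CPM of Csf1 in OE-MLKL 1 and 2, and 288 CPM on 52 cells of OE-MLKL 3. Cluster 10 had 2445 CPM of Csf3r in OE-Vector 1 and 1445 in OE-MLKL 3. The clusters were made on 2000 variable genes, and the levels within them carry no test.

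In T cells the changes of Csf2 and Csf1 pointed in opposite directions. Csf2 gave -2.35 ± 0.43 (edgeR, adjusted p = 0.32). Every OE-MLKL library (3.70 to 6.27 CPM) lay below OE-Vector 1 (25.5 CPM). Csf1 gave 1.12 ± 0.33 (edgeR, adjusted p = 0.915), and here every OE-MLKL library (39.7 to 56.9 CPM) lay above OE-Vector 1 (20.9 CPM). OE-Vector 1 lay outside the OE-MLKL range for 43% of all genes in T cells. Neither gene was called, and whether they passed depended on the library left out. Without OE-MLKL 3, Csf2 fell by 2.04 ± 0.34 (edgeR, adjusted p = 0.00444) and Csf1 gave 1.06 ± 0.24 (edgeR, adjusted p = 0.0303), while 3.43% of all genes were called. Csf1 did not pass without OE-MLKL 1 or 2 (edgeR, adjusted p = 0.847 and 1.0), nor did Csf2 without OE-MLKL 2 (edgeR, adjusted p = 0.0574). Csf2 fell by 2.48 ± 0.49 without OE-MLKL 1 (edgeR, adjusted p = 0.000377, with 0.368% of all genes called) and, with no filter on low counts, by 2.37 ± 0.45 (edgeR, adjusted p = 0.000748, with 0.518% called). Leaving out the T cell with the most Csf2 UMIs in each library, an alternative chosen after seeing the data, gave -2.40 ± 0.54 (edgeR, adjusted p = 0.573). T cells held 2.30 cancer marker UMIs per 10000 in OE-Vector 1 and 1.12 to 2.74 in OE-MLKL, and 4.23 neutrophil marker UMIs against 3.15 to 9.17. Free RNA held 86.5 CPM of Csf1 in OE-Vector 1 and 44.5 to 77.5 CPM in OE-MLKL, above the T cells of every library. The part of these markers and of free RNA in the result was not tested. The receptor genes in T cells gave values from -0.44 ± 0.54 (Csf3r) to 0.21 ± 0.52 (Csf2rb).

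Cancer cells showed no called difference in either ligand of CSF1R. Csf1 gave -0.13 ± 0.39 (edgeR, adjusted p = 0.999), with the 57.4 CPM of OE-Vector 1 inside the OE-MLKL range of 40.5 to 88.5 CPM. Il34 gave -0.72 ± 0.41 (edgeR, adjusted p = 0.999), with OE-Vector 1 (6.88 CPM) above the OE-MLKL range of 3.24 to 5.70 CPM, as for 17.6% of all genes (48.6% lay outside on either side). Csf3r, at levels far below those of neutrophils, gave -0.70 ± 0.71. The neutrophil markers stood at 2.58 UMIs per 10000 in the cancer cells of OE-Vector 1 and 1.60 to 5.88 in those of OE-MLKL, and their part in the result was not tested.

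In macrophages no receptor gene was called. Csf1r gave 0.17 ± 0.34 (edgeR, adjusted p = 0.962) and Csf2rb 0.38 ± 0.37 (edgeR, adjusted p = 0.93). For both, OE-Vector 1 was below all OE-MLKL libraries in CPM, as for 34.1% of all genes (52.6% lay outside on either side). Per 100 cells this did not hold, since OE-Vector 1 had 110.0 Csf2rb UMIs against 81.5 to 104 in OE-MLKL, and 678 Csf1r UMIs against 375, 474 and 726. Csf2ra gave 0.25 ± 0.34 and Csf3r -0.34 ± 0.36. The thinned share of macrophages with a Csf1r UMI was 32.3% in OE-Vector 1 and 36.3% ± 1.75 (SD, n = 3) in OE-MLKL (exact permutation p = 0.25, the smallest possible, two-sided). Different clusters held most macrophages, with cluster 5, led by Cd163, in OE-MLKL 1 and 2, and cluster 7, led by Fcrls, in OE-Vector 1 and OE-MLKL 3. Csf1r was at 661, 856, 967 and 649 CPM in cluster 5 and at 868, 742, 965 and 1096 CPM in cluster 7. In cluster 18, led by Mmp12, Mmp13 and Nos2, it was lower in each library, at 407, 294, 480 and 328 CPM.

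Dendritic cells rested on few UMIs. Their Csf2rb gave -0.42 ± 0.45 and their Csf2ra 0.49 ± 0.47 (both edgeR, adjusted p = 1.0). OE-Vector 1 was above the OE-MLKL range for Csf2rb (256 against 171 to 231 CPM) and Csf3r (30.3 against 7.45 to 22.1 CPM). It was below that range for Csf2ra (101 against 123 to 182 CPM). OE-Vector 1 lay outside that range for 40.9% of all genes in dendritic cells. Csf1r (0.36 ± 0.62) and Csf3r (-0.76 ± 0.63) were tested on 82 and 70 UMIs over the 4 libraries.

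The wider pathway was read from lists of genes around the receptors. None of the 246 tests of these genes over the 5 classes was called by edgeR, whose shares of calls over all genes are given above. DESeq2 but not edgeR called Klf4 in macrophages, at 1.81 ± 0.47 as fitted by edgeR. The fitted value of Klf4 was higher in OE-MLKL in the other classes too. It was 1.09 ± 0.43 in cancer cells, 1.21 ± 0.45 in neutrophils, 1.15 ± 0.51 in dendritic cells and 0.85 ± 0.53 in T cells. The change was thus not particular to macrophages. Of the 18 signal transducers, 8 were highest in neutrophils among the 5 classes. The share of all genes that were highest in neutrophils was not computed. This count and those below therefore do not show an excess. Tyrobp, an adaptor of myeloid receptors, reached 5913 ± 840 CPM in neutrophils (SD, n = 4), while Jak1 was highest in T cells (341 ± 72.4 CPM). Among the 9 targets and feedback genes of STAT proteins, 5 were highest in neutrophils, led by the survival gene Mcl1 (2396 ± 419 CPM), the kinase gene Pim1 (1672 ± 737 CPM) and Socs3 (388 ± 135 CPM), which restrains CSF3R signalling.

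Of the 12 genes known to induce colony-stimulating factors that reached 1 CPM in a class, 6 were highest in neutrophils. Il1b was at 9580 ± 2159 CPM in neutrophils (SD, n = 4) and Il17ra at 469 ± 98.4 CPM, and Nfkb1 was highest in dendritic cells (209 ± 45.4 CPM). In OE-MLKL neutrophils 10 of the 11 tested had lower values as fitted with TMM scaling (median -0.45 against 0.04 over all genes), among them Il1a, also called by DESeq2, at -2.88 ± 0.61 (edgeR, adjusted p = 0.592). In cancer cells 7 of 11 had lower values (median -0.28) and in macrophages 6 of 11 (median -0.07), whereas in dendritic cells 6 of 8 had higher values (median 0.17). All 10 tested in T cells had lower values (median -0.38 against 0.03), among them Il17a at -3.75 ± 0.70 (edgeR, adjusted p = 0.328) and Tnf, like Il17a named after the values were seen, at -1.19 ± 0.28 (edgeR, adjusted p = 0.629). Of the 55 Il17a UMIs in the T cells of OE-Vector 1, all lay in 5 cells. The lower direction was not particular to the inducers. In OE-MLKL neutrophils 15 of 18 signal transducers also had lower values (median -0.22). So did 6 of 9 STAT targets and feedback genes (-0.09) and 6 of 9 tested myeloid transcription factors (-0.23). In T cells 14 of 18, 6 of 9 and 6 of 10 did (-0.18, -0.21 and -0.19). Il5, of the beta chain family, gave -4.51 ± 1.01 in T cells (edgeR, adjusted p = 0.538), from 42, 0, 0 and 3 UMIs. The transcription factors of myeloid cells divided by class, with Cebpb highest in neutrophils (3421 ± 967 CPM) and Irf8 in dendritic cells (1743 ± 366 CPM). Sdc1, a further receptor of IL-34, was highest in cancer cells (297 ± 34.2 CPM), which also held most Il34.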

How the data were processed

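The deposited files hold raw UMI counts per gene and barcode, not normalised, made by the authors with Cell Ranger. The file headers name version 7.1.0, the submitters' processing notes 2.1.1 with mm10 and the methods 3.1.0. Barcodes with at least 500 UMIs, 200 genes, at most 10% mitochondrial and 5% haemoglobin UMIs were kept, and doublets were removed at 0.8% per 1000 cells (12.3% to 18.4% of a library). A cell was gated with at least 3 UMIs from 2 markers of a list and only that list above its limit (12 marker UMIs per 10000 for cancer and dendritic cells, 16 for T cells, 100 for macrophages and neutrophils). The NK cell and monocyte lists did not count as further lists here. A T cell above the NK cell limit, or a macrophage or neutrophil above the monocyte limit, thus stayed in its class. The limits were set after the distributions were seen. Counts were summed per class and library and tested with edgeR 4.0.16 (TMM, filterByExpr, Benjamini-Hochberg at 0.05) in R 4.3.3, with DESeq2 1.42.0 as an alternative. Scripts were tested on simulated data, in which few 4-fold changes between the groups were recovered in some classes. The share was 32.9% in cancer cells and 32.7% in neutrophils, against 67.0% in macrophages, 66.3% in dendritic cells and 73.1% in T cells. False calls were 18 of 146 simulated calls in cancer cells, 24 of 185 in macrophages and 12 of 133 in neutrophils. In dendritic cells they were 3 of 169 and in T cells 14 of 182. Changes were simulated only in genes above a minimum expected count. Clusters were made with leidenalg 0.10.2 on 2000 variable genes. Poisson intervals and upper limits for 0 counts (3 UMIs) cover counting error only. P-values rest on the spread between these libraries, which edgeR and DESeq2 estimate in part from all genes together. Those of the group comparison, dendritic cells included, therefore do not measure each gene's own spread alone. The single OE-Vector library adds no spread to that comparison.

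The 8 genes and the gene lists were chosen with earlier results of these data known. The named genes were the 8 members, of each list those called and the 3 with the highest mean CPM, and the 3 genes most correlated with each member over the 20 sums, and a few genes that this rule names are not reported here. Il17a, Tnf and, beside Csf2, Il13, Gata3, Ifng, Cd8a, Foxp3 and Tnfrsf9 fall outside the rule and were named after their values were seen. Counts do not establish whether antisense reads were kept apart. Il34 and Csf2 overlap antisense genes (Gm15894, Gm15895 and Gm12223), and Csf1r overlaps Hmgxb3 on the other strand. Values of OE-Vector 2 and 3 were not analysed here.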

Additional observations from a re-analysis of the deposited data

Results flagged for a closer look

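The fitted change of Csf1 between OE-Vector 1 and the OE-MLKL libraries had opposite signs in neutrophils and T cells, although neither passed the test (edgeR, adjusted p = 0.698 and 0.915). It was -1.19 on the log2 scale in neutrophils and 1.12 in T cells, whose Csf1 level lay below that of free RNA in every library. The log2 changes differed by 2.31, and the difference was not tested. In neutrophils OE-MLKL 1 and 2 were low, whereas OE-MLKL 3 (411 CPM, 95% Poisson interval 397 to 425) overlapped OE-Vector 1 (422 CPM, 407 to 437) and was higher in UMIs per 100 cells (58.9 against 51.6). Csf2rb likewise had opposite signs in macrophages (0.38) and dendritic cells (-0.42), and neither passed (edgeR, adjusted p = 0.93 and 1.0). The log2 changes differed by 0.80, and this difference was not tested either.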

How the results depend on the processing

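No paired analysis was possible because the groups share only replicate number 1 among the libraries with count matrices. Over 338 values of a gene in a class under an alternative, 308 kept direction and side of the threshold, 6 passed it (5 of them without a library) and 24 changed sign. The genes called between the groups varied widely. In cancer cells 1 was called, with 0 at a mean of at least 20 UMIs, 0 with classes from Leiden clusters, 0 by library size alone, 90 by DESeq2 and 7 to 340 without 1 library. In macrophages 3 were called, with 0 at a mean of at least 20 UMIs, 0 with doublets kept, 1 by library size alone, 15 without a filter, 58 by DESeq2 and 0 to 187 without 1 library. In neutrophils 0 were called, with 1 with doublets kept, 38 without a filter, 82 by DESeq2 and 9 to 2072 without 1 library. In dendritic cells 26 were called, with 0 by DESeq2, 0 under a stricter gate, 13 with doublets kept, 13 by library size alone and 13 to 59 without 1 library. In T cells 1 was called, with 10 by DESeq2, 95 without a filter and 5 to 370 without 1 library. The causes were not tested.

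The following values, on the log2 scale, changed sign. With library size alone, Csf1 (0.013) and Csf2rb (0.072) in cancer cells, Csf2rb in neutrophils (0.022) and Csf2ra in T cells (0.069) did. With doublets kept, Csf3 (-0.28), Csf1r (-0.064), Csf2ra (-0.014) and Csf2rb (0.10) in cancer cells did. With Leiden clusters Csf3 in macrophages (-1.06) and Csf2rb in T cells (-0.18) did, under a stricter gate Csf3 in neutrophils (0.47) and Csf1r in T cells (-0.041), and at a mean of at least 20 UMIs Csf2ra in T cells (0.0028). With 1 library left out the lowest and highest values were -0.424 and 0.030 (Csf1), -0.458 and 0.271 (Csf1r), -0.667 and 0.416 (Csf2ra) and -0.478 and 0.105 (Csf2rb) in cancer cells, -2.30 and 0.653 (Csf3 in macrophages), -1.17 and 0.123 (Csf3 in neutrophils), and -0.710 and 0.325 (Csf1r), -0.606 and 0.302 (Csf2ra) and -0.013 and 0.359 (Csf2rb) in T cells.

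After thinning to 500 UMIs 4 of the 8 genes had 1 class with the highest share of cells in all libraries, and 7 after thinning to 1000 UMIs. All 8 genes were called in their leading class and 6 to 8 under the alternatives. Without the library block Csf3 in neutrophils over macrophages was 1.28 (edgeR, adjusted p = 0.16). No values for dendritic cells came from Leiden clusters. Low counts of Csf2, Csf3 and Il34, the few dendritic cells and the single OE-Vector library limit what could be detected.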
